A study of Mus musculus with 10 samples.

Results

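The 6 genes described here are *Nos2*, *Ass1*, *Odc1*, *Slc7a2*, *Il4ra* and *Chil3*, taken by name out of 18292 gene symbols in the single cell data of sorted mouse microglia. All 6 were in the files, and a gene missing from the table of a library was taken as 0. They were chosen by name with expression levels in the slice cells of these data known, but no measured level of the 6 themselves set a threshold. They act in the use of arginine or, for *Il4ra* and *Chil3*, in the response to interleukin 4. Microglia from 5 groups of C57BL/6 mice were compared, with 2 libraries per group: adult brain (mice of 10 to 15 weeks), *in vitro* mixed glial cultures (cortices of postnatal day 2, with microglia collected from the medium at day 22) and organotypic brain slices (pups of postnatal day 1 to 4, several slices pooled as required) kept for 1 day, 1 week or 3 weeks. The labels name no drug and no transgene in any group. Live cells were sorted as CD11b high and CD45 intermediate before 10x Genomics 3′ sequencing. Age and culture therefore change together between adult and every other group, and their parts in a difference cannot be told apart. Between slice groups, the age of the tissue and the time in culture also change together. The *in vitro* cultures and the slices differ in medium, temperature and the way microglia were collected, and these parts cannot be told apart either.

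L-arginine is a substrate for competing enzymes in myeloid cells. It can be broken down to ornithine, from which polyamines and proline are made, or used by the inducible nitric oxide synthase, which makes nitric oxide and citrulline from it. Citrulline can be turned back into arginine through argininosuccinate. In mouse macrophages, *Chil3* is known as a gene that responds to interleukin 4, and *Nos2* as a gene that responds to interferon and bacterial products.

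After cells past the limits on quality were removed, 19059 of 19637 barcodes remained, from 61 to 3799 cells per library, and the median per cell of UMIs (unique molecular identifiers, which mark each counted transcript) ran between 1858 (adult replicate 2) and 13966 (replicate 2 of the *in vitro* cultures). All 14 microglia markers were detected in every library, at 6.58% and 6.76% of UMIs in adult and at 0.959% to 3.70% in the other libraries. Genes of a list of 9 neutrophil markers made up 0.000118% to 0.000839% of UMIs in the adult, *in vitro* and slice 3 weeks libraries, but 0.766% and 2.24% at slice 1 day and 4.03% and 0.0955% at slice 1 week. UMIs of at least 3 of these markers were in 1007 of 1014 cells of slice 1 day replicate 2 and in 148 of 148 cells of slice 1 week replicate 1. These 2 libraries stood apart from the others. The counts of the 6 genes called at slice 1 day and slice 1 week are given with and without them. The gene lists are given only with them. Cells with over 2% of their UMIs in the neutrophil list (neutrophil-marker-rich cells) numbered 68 and 110 at slice 1 day, 24 and 1 at slice 1 week, and 0 in all other libraries, and 6 and 3 cells of the slice 1 day libraries lay between 1.5% and 2.5%. Among the cells kept, 218 of 18840 distinct barcode strings occurred in more than 1 library, at most 3.28% of the smaller library of a pair.

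Promoter windows of the RefSeq annotation (GRCm38.p6, 250 bases before to 50 after the start of the gene) were matched by symbol for 4 of the 6 genes, *Ass1*, *Odc1*, *Il4ra* and *Chil3*. Those of *Nos2* and *Slc7a2* are not analysed here. Those of *Ass1* and *Chil3* are shown because, of the 4, these genes had the lowest and highest measured share of their UMIs in neutrophil-marker-rich cells. For *Ass1* no difference in the share of cells with a UMI was detectable at equal depth per cell. The *Ass1* stretch lies at chr2:31470020-31470269 (plus strand), 250 bases up to the RefSeq start. It has the E-box CACGTG at base 215 and the GC box GGGCGG at base 188 in capitals. GENCODE vM21 starts *Ass1* at 31470207, inside this stretch, and by that start both motifs lie at or past the start of the gene. The GENCODE vM21 starts of *Odc1* (17544794) and *Il4ra* (125552120) also lie before the RefSeq starts. The *Chil3* stretch lies at chr3:106167555-106167814 (minus strand), 260 bases that run past the start of the gene. It has TATAAA at base 248, across that start, and the STAT-type palindrome TTCNNNGAA at base 79 in capitals. Bases are counted from 1 at the 5′ end.
Ass1: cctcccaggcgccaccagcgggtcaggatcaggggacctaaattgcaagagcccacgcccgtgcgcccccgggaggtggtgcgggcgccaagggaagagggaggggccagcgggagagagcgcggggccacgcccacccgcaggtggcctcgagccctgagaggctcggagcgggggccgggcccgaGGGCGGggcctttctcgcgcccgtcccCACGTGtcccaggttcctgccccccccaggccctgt
Chil3: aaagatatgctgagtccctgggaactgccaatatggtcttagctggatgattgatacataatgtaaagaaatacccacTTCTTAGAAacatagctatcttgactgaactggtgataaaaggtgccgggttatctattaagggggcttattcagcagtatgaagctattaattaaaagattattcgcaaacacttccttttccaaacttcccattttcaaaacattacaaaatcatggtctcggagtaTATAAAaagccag
The whole windows of 300 bases held 74.0% G and C with 27 CpG in *Ass1*, 78.0% with 42 CpG in *Odc1*, 62% with 25 CpG in *Il4ra*, and 38.7% with 3 CpG in *Chil3*, beside a median of 52.7% over 32851 promoter windows. Of those windows, 7.15% held CACGTG, 35.7% GGGCGG, 13.6% TATAAA and 8.30% TTCNNNGAA on either strand. TTGCNNAA, found in 10.8% of windows, was in none of the 4. GGGCGG occurred once in *Ass1*, once in *Il4ra* and at 4 places in *Odc1*, and these matches are a description of the letters only.

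Levels are given in CPM (UMIs scaled to 1000000 per library), and groups were compared with the edgeR quasi-likelihood test over all genes. *In vitro* against adult, 3 of the 6 genes passed the test as higher (*Ass1*, *Slc7a2* and *Il4ra*) and 0 as lower, where passing means an FDR under 0.05 and a fold change over 1.5. Of all 12157 genes tested, 22.4% were called higher and 28.5% lower in that comparison. All 6 genes passed the filter on low counts, but *Nos2*, *Chil3*, *Slc7a2* and *Ass1* did so only through the groups in which they were high, so counts of the 6, and the adjusted p-values of these 4 genes throughout, are a description and support no difference. With 2 libraries against 2, an exact permutation test of a single value cannot go below p = 0.333, and none was made.

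Against adult, slice 1 day had 5 of the 6 genes higher (all but *Slc7a2*) and 0 lower, with 24.9% of all genes called higher and 25.3% lower. Slice 1 week had 2 higher (*Nos2* and *Chil3*) and 0 lower, with 15% and 13.6% of all genes. Without slice 1 day replicate 2, 3 of the 6 passed at 1 day, and without slice 1 week replicate 1, 0 passed at 1 week. Without the neutrophil-marker-rich cells 4 passed at 1 day and 1 at 1 week. Slice 3 weeks had 1 higher (*Ass1*) and 0 lower, with 17.9% and 17.5% of all genes. These 4 comparisons share the adult libraries. *In vitro* against slice 3 weeks gave 2 higher *in vitro* (*Slc7a2* and *Il4ra*) and 2 lower (*Nos2* and *Ass1*), with 13.3% and 19.9% of all genes. From slice 1 day to slice 3 weeks, 3 fell (*Odc1*, *Il4ra* and *Chil3*) and 0 rose, with 12.8% of all genes called lower and 13.9% higher. Without slice 1 day replicate 2, 1 fell (*Il4ra*), and without the neutrophil-marker-rich cells 3 did.

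**Figure D1:**
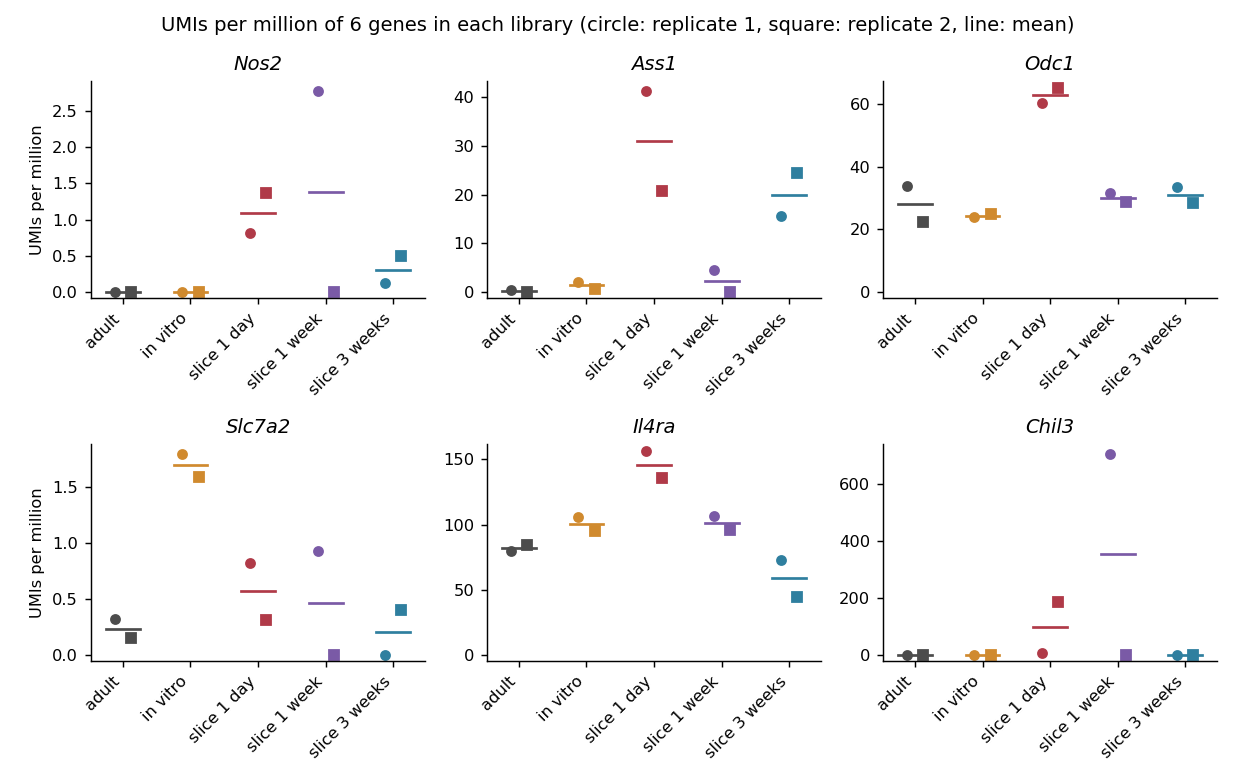
Level of the 6 genes in CPM (y axis of each panel, UMIs scaled to 1000000 per library) in the 5 groups (x axis); circles are replicate 1, squares replicate 2 and lines the mean of both libraries. *Odc1* and *Il4ra* were highest in both slice 1 day libraries, *Ass1* was above 15 CPM at slice 1 day and 3 weeks alone, and *Chil3* reached 704 CPM in 1 library of slice 1 week and 0 in the other.

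*Nos2*, the inducible nitric oxide synthase (chromosome 11, 78920787 to 78960254, plus strand; GRCm38, GENCODE vM21), was close to the limit of detection in every group. It had 0 UMIs in the adult and *in vitro* libraries, 3 and 13 at slice 1 day, 3 and 0 at slice 1 week, and 1 and 11 at slice 3 weeks. In CPM, slice 1 day was at 0.819 and 1.36, slice 1 week at 2.78 and 0, and slice 3 weeks at 0.128 and 0.493. Against the level that 3 counts over both adult libraries would give (0.156 CPM), the mean of both slice 1 day libraries was at least 6.98-fold higher. Replicate 2 of slice 1 day was at least 8.72-fold higher, while replicate 1 held no more than those 3 counts and gives no bound here. As *Nos2* passed the filter on low counts only through the groups in which it was high, its adjusted p-values are given as a description (0.00758 at slice 1 day and 0.0505 at slice 3 weeks against adult, edgeR). Neutrophil-marker-rich cells held 3 of the 3 and 6 of the 13 UMIs at slice 1 day, and without these cells *Nos2* had too few counts to be tested. The call at slice 1 day was also lost without adult replicate 1 (adjusted p = 0.0545) or slice 1 day replicate 2 (adjusted p = 0.0767). The call at 1 week was lost without adult replicate 1 (adjusted p = 0.0838), adult replicate 2 (adjusted p = 0.0597) or slice 1 week replicate 1, where no UMI was left, and with the study label as a term (adjusted p = 0.0572), and slice 3 weeks passed without its replicate 1 (adjusted p = 0.0377). *In vitro* against slice 3 weeks was lost without either *in vitro* library (adjusted p = 0.0641 and 0.0769) or slice 3 weeks replicate 2 (adjusted p = 0.202). Its 0 over both *in vitro* libraries allows up to 0.0407 CPM.

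*Ass1*, argininosuccinate synthase, which starts the return of citrulline to arginine (chromosome 2, 31470207 to 31520672, plus strand), was the gene of the 6 that passed the test at slice 3 weeks against adult. It was at 0.404 and 0 CPM in adult (5 and 0 UMIs), 2.18 and 0.680 *in vitro*, 41.2 and 20.7 at slice 1 day, 4.63 and 0 at slice 1 week, and 15.6 and 24.4 at slice 3 weeks. The slice 1 day and slice 3 weeks libraries were all above those of the other groups, and they overlapped one another. *Ass1* passed the filter on low counts only through the groups in which it was high, so its adjusted p-values are given as a description. The log2 fold change against adult was 6.93 (SE 0.82, adjusted p = 6.88e-05) at slice 1 day and 6.45 (SE 0.82, adjusted p = 0.000202) at slice 3 weeks, both by edgeR. All 5 adult UMIs of *Ass1* were in replicate 1. Without that library both calls held (adjusted p = 0.000964 and 0.00247) but the fitted folds, against an adult level of 0, are no bound, and without adult replicate 2 the log2 fold changes were 6.29 and 5.79. At slice 1 week *Ass1* did not pass (log2 fold change 3.87, adjusted p = 0.134), but did under DESeq2 (adjusted p = 0.00252) and without the filter on low counts (adjusted p = 0.00125). *In vitro* the log2 fold change against adult was 2.70 (SE 1.00, adjusted p = 0.0408), and *Ass1* was 13.4-fold lower *in vitro* than at slice 3 weeks (log2 fold change -3.74, adjusted p = 0.000525, edgeR), with -4.68 and -3.05 on the log2 scale without *in vitro* replicate 1 or 2. The *in vitro* call against adult was lost without adult replicate 1 (adjusted p = 0.0588), adult replicate 2 (log2 fold change 2.05, adjusted p = 0.149) or *in vitro* replicate 1 (1.80, adjusted p = 0.156) and under library size alone (2.41, adjusted p = 0.0627), all by edgeR, and without *in vitro* replicate 2 the log2 fold change was 3.43. From slice 1 day to slice 3 weeks the log2 change was -0.49 (SE 0.49, adjusted p = 0.476, edgeR).

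The submitters' study label joined adult replicate 1 with slice 3 weeks replicate 1 and all other libraries with one another. Within the first, *Ass1* was 0.404 CPM in adult and 15.6 at slice 3 weeks, and within the second it was 0 and 24.4. With the label as a term the log2 fold change of *Ass1* at slice 3 weeks was 6.34 (adjusted p = 0.000252, edgeR, as a description), and *in vitro* against adult the calls of *Ass1* (log2 fold change 2.38, adjusted p = 0.102) and *Slc7a2* (2.49, adjusted p = 0.0529) were lost.

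An *Ass1* UMI was found in a minority of cells wherever it was detected. At slice 1 day 52 of 518 cells (10.0%, exact 95% binomial interval 7.59% to 13%) and 74 of 1014 cells (7.30%, 5.77% to 9.08%) held one, and at slice 3 weeks 84 of 1153 (7.29%, 5.85% to 8.94%) and 363 of 3740 (9.71%, 8.78% to 10.7%). The share was 1.82% and 0.746% *in vitro*, 0.132% and 0% in adult (a count of 0 of 3527 allows up to 0.0851%), and 2.70% and 0% at slice 1 week, where 0 of 61 cells allows up to 4.92%. Intervals and limits of this kind cover counting error only. The shares at slice 1 day and slice 3 weeks overlapped, but single cells reached 15 and 31 UMIs of *Ass1* at slice 1 day and 5 and 5 at slice 3 weeks.

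Depth differed between the groups, so each cell was also thinned to 1800 UMIs, which left out 413 and 1618 adult cells, 26 and 0 cells at slice 1 day, 9 and 9 at 1 week, 23 and 51 at 3 weeks and none *in vitro*. The thinned shares of *Ass1* were 4.47% and 2.17% at slice 1 day, 2.30% and 3.28% at 3 weeks, 1.44% and 0% at 1 week, 0.331% and 0.0746% *in vitro* and 0.0591% and 0% in adult. After thinning the slice 1 day and slice 3 weeks libraries stood above the adult and *in vitro* libraries, but 0 of 52 thinned cells in slice 1 week replicate 2 allows a share of up to 5.77%, so slice 1 week cannot be placed below them.

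The same shares were taken in the neutrophil-marker-rich cells, and the part of free RNA in the droplets was not tested. At slice 1 day, 0 of 68 of them (median 2224 UMIs per cell, with a share of up to 4.41% allowed) and 1 of 110 (0.909%, median 4925) held an *Ass1* UMI, against 52 of 450 (11.6%, 8.75% to 14.9%, median 6986) and 73 of 904 (8.08%, 6.38% to 10.0%, median 8868) of the other cells. At 1800 UMIs per cell the shares were 0% against 5.01% and 0% against 2.43%, but 0 of 53 and 0 of 110 thinned cells allow up to 5.66% and 2.73%, so no difference was detectable at that depth. These cells held 0 of 151 and 2 of 197 *Ass1* UMIs of the slice 1 day libraries. In slice 1 week replicate 1, 0 of 24 of them and 4 of 124 other cells held a UMI, a difference that was not detectable at this depth, since 0 of 24 allows a share of up to 12.5%.

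**Figure D2:**
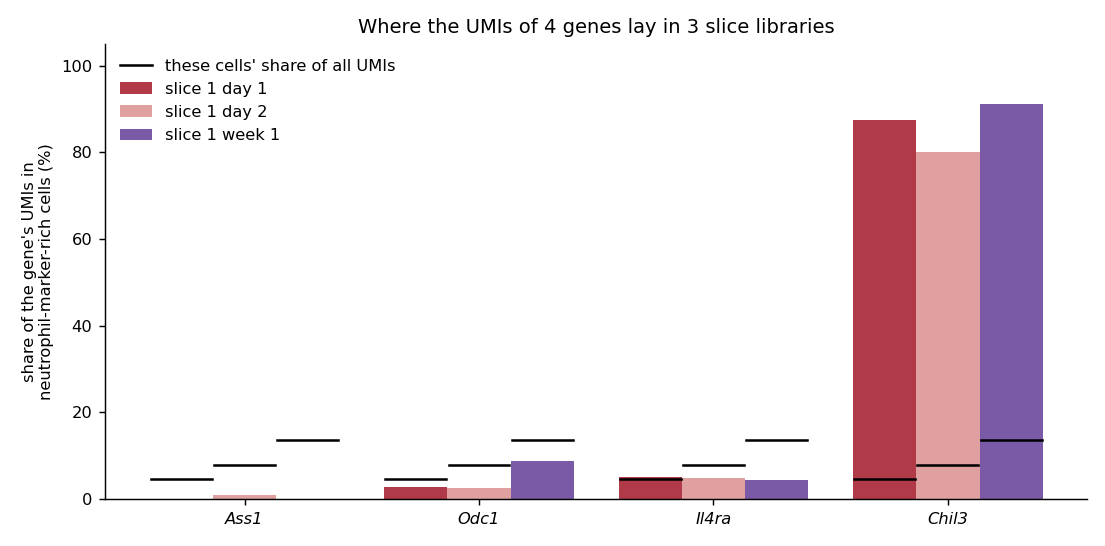
Percent of the UMIs of each gene (y axis) that lay in neutrophil-marker-rich cells in the 3 slice libraries with at least 24 such cells; black lines give the share of all UMIs in those cells. *Chil3* stood at 80.0% to 91.1% and *Ass1* at 0% to 1.02%.

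*Odc1*, ornithine decarboxylase, which makes putrescine from ornithine (chromosome 12, 17544794 to 17551505, plus strand), was detected in every library. It was 33.9 and 22.4 CPM in adult, 23.8 and 25 *in vitro*, 60.4 and 65.1 at slice 1 day, 31.5 and 28.5 at slice 1 week and 33.5 and 28.4 at slice 3 weeks. Both slice 1 day libraries were above all others, and the *in vitro*, slice 1 week and slice 3 weeks libraries lay within the range of the adult libraries in CPM. On the TMM-scaled CPM of the test, slice 1 week replicate 1 (33.6) and slice 3 weeks replicate 1 (33.9) were above both adult libraries (30.8 and 19.6). *Odc1* was 2.41-fold higher at slice 1 day than in adult (log2 fold change 1.27, SE 0.20, adjusted p = 0.000398, edgeR) and fell by 0.95 on the log2 scale from slice 1 day to slice 3 weeks (SE 0.20, adjusted p = 0.00542, edgeR). That fall was not called without slice 1 day replicate 2 (adjusted p = 0.0540) or without it and slice 1 week replicate 1 together (adjusted p = 0.0762, both by edgeR). *In vitro* (log2 fold change 0.08, SE 0.19) and slice 3 weeks (0.31, SE 0.20) did not pass against adult, though slice 3 weeks did so without adult replicate 1 (log2 fold change 0.75, adjusted p = 0.0212, edgeR).

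The share of cells with an *Odc1* UMI was compared before and after thinning in the same way. It was 10.3% and 4.28% in adult, 25.2% and 27.4% *in vitro*, 27.2% and 38.6% at slice 1 day, 17.6% and 16.4% at slice 1 week and 19.9% and 14.7% at slice 3 weeks. At 1800 UMIs per cell it was 5.76% and 4.03% in adult, 4.14% and 4.25% *in vitro*, 8.13% and 12.1% at slice 1 day, 3.60% and 3.85% at slice 1 week and 6.64% and 4.96% at slice 3 weeks. The *in vitro* libraries were above both adult libraries before thinning and lay between them after it, while those of slice 1 day were the highest after thinning.

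*Slc7a2*, the cationic amino acid transporter CAT2 that carries arginine into cells (chromosome 8, 40862396 to 40922308, plus strand), had its highest measured level *in vitro*. It had 61 and 63 UMIs there (1.80 and 1.59 CPM), 4 and 1 in adult (0.323 and 0.147 CPM), 3 and 3 at slice 1 day, 1 and 0 at slice 1 week, and 0 and 9 at slice 3 weeks. Both *in vitro* libraries were above all other libraries in measured CPM, but 3 counts over both libraries of slice 1 week would already give 2.05 CPM, so that group cannot be placed below them. *Slc7a2* passed the filter on low counts only through the *in vitro* libraries, and its adjusted p-values are given as a description. It was 7.84-fold higher *in vitro* than in adult (log2 fold change 2.97, SE 0.77, adjusted p = 0.00759) and 6.37-fold higher than at slice 3 weeks (adjusted p = 0.0129, both by edgeR). The call against adult was lost without adult replicate 2 (adjusted p = 0.0547), while without adult replicate 1 the log2 fold change was 3.85 (adjusted p = 0.0385). The call against slice 3 weeks was lost without *in vitro* replicate 1 (adjusted p = 0.0679) or 2 (adjusted p = 0.0591), and without slice 3 weeks replicate 2 no UMI was left at slice 3 weeks. In the slice groups against adult it did not pass, with log2 fold changes of 0.99 (SE 1.06), 1.58 (SE 1.98) and 0.30 (SE 0.98) at 1 day, 1 week and 3 weeks.

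*Il4ra*, the ligand-binding chain of the receptors for interleukins 4 and 13 (chromosome 7, 125552120 to 125579474, plus strand), was detected in every library. It was 79.7 and 84.4 CPM in adult, 106 and 94.7 *in vitro*, 156 and 136 at slice 1 day, 106 and 96.0 at slice 1 week and 73.2 and 44.2 at slice 3 weeks. The slice 1 day libraries were the highest and the slice 3 weeks libraries the lowest, while *in vitro* and slice 1 week overlapped. On the TMM-scaled CPM that the test uses, slice 3 weeks replicate 1 (74.0) was level with the adult libraries (72.3 and 73.9). *Il4ra* was 1.94-fold higher than adult at slice 1 day (log2 fold change 0.95, SE 0.20, adjusted p = 0.00270) and 1.51-fold higher *in vitro* (adjusted p = 0.0273), and it was 2.37-fold lower at slice 3 weeks than at slice 1 day (adjusted p = 0.00180, all by edgeR). The *in vitro* call was close to the threshold on fold change (log2 fold change 0.60) and was lost when counts were scaled by library size alone (0.29, adjusted p = 0.251). Without adult replicate 1 (log2 fold change 0.68, adjusted p = 0.0672), adult replicate 2 (0.61, adjusted p = 0.0878) or *in vitro* replicate 1 (0.65, adjusted p = 0.0679) it was lost on the p-value, with the fold as large as before. Slice 1 week did not pass (log2 fold change 0.53, adjusted p = 0.101), but did with the study label as a term (0.69, adjusted p = 0.0425) or with only the 2 groups fitted (0.60, adjusted p = 0.0290, all by edgeR). Slice 3 weeks without its replicate 1 passed as lower than adult (log2 fold change -0.63, adjusted p = 0.0122, edgeR). An *Il4ra* UMI was in 22.6% and 14.6% of adult cells, 70.1% and 65.9% *in vitro*, 47.3% and 54.3% of those at slice 1 day, 43.9% and 36.1% of those at 1 week, and 35.7% and 21.9% of those at 3 weeks. At 1800 UMIs per cell an *Il4ra* UMI was in 13.5% and 13.3% of adult cells, 18.7% and 16.1% *in vitro*, 22% and 19.8% of those at slice 1 day, 19.4% and 11.5% of those at 1 week, and 13.1% and 8.05% of those at 3 weeks.

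**Figure D3:**
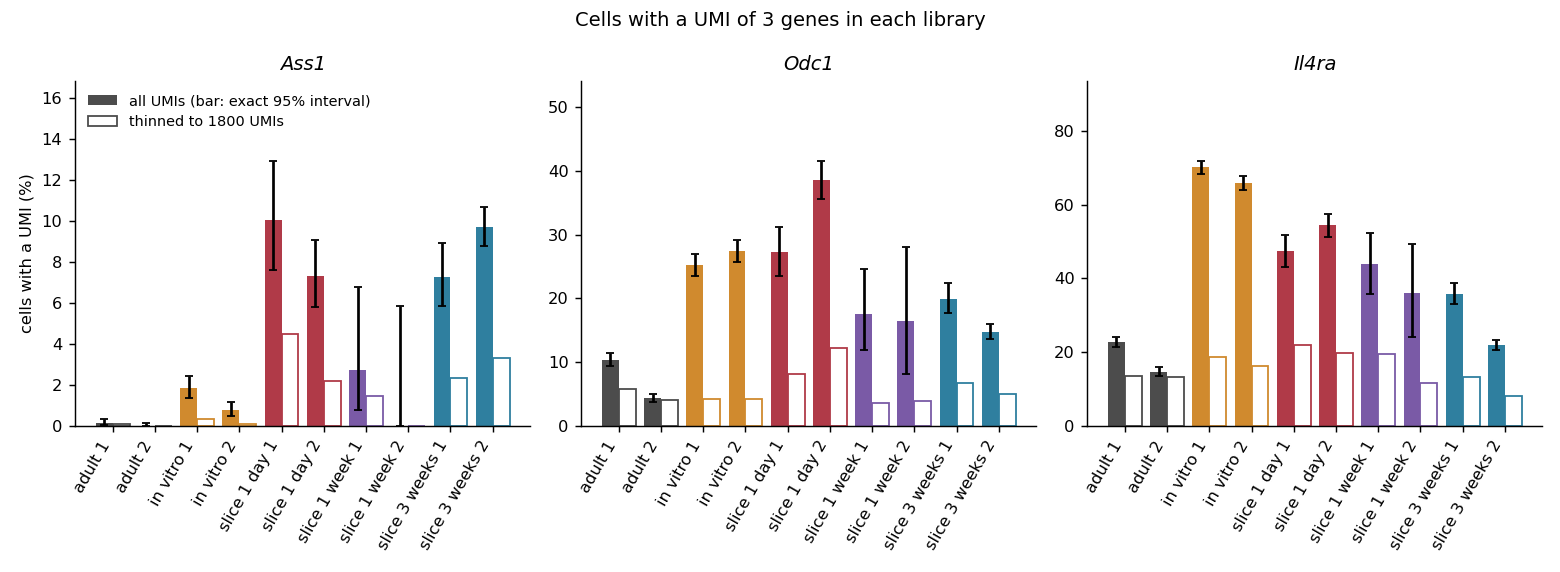
Percent of cells with a UMI of *Ass1*, *Odc1* and *Il4ra* (y axis of each panel) in each library (x axis), from all UMIs (filled, with exact 95% binomial intervals) and after thinning to 1800 UMIs per cell (open). For *Ass1* the slice 1 day and 3 weeks libraries stood at 7.29% to 10.0% before and 2.17% to 4.47% after thinning, and for *Il4ra* the *in vitro* libraries went from 70.1% and 65.9% to 18.7% and 16.1%.

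**Figure D4:**
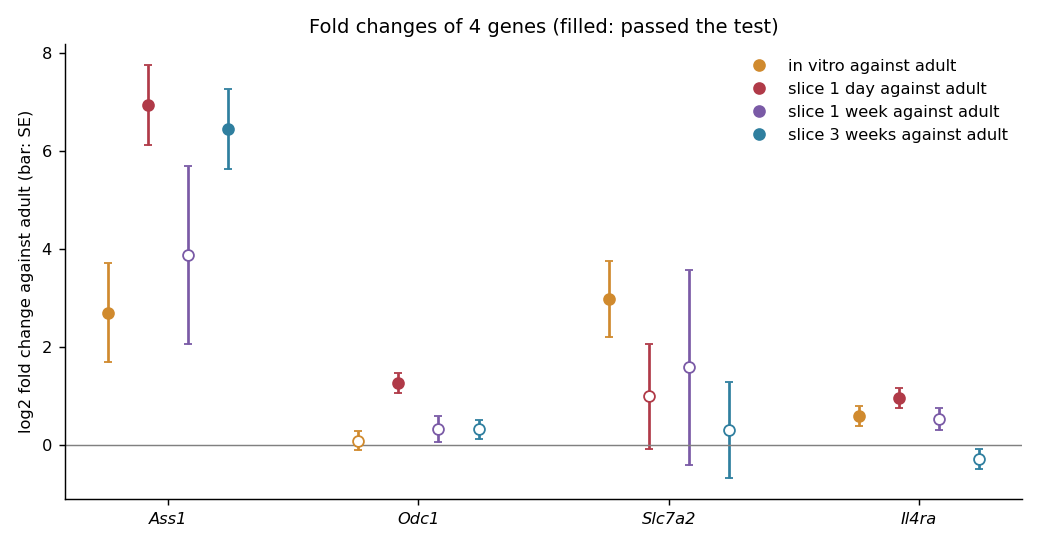
Log2 fold change against adult (y axis, bars are SE of the edgeR fit) of the 4 genes with UMIs in adult; filled points passed the test. *Ass1* was at 6.93 and 6.45 at slice 1 day and 3 weeks, *Odc1* passed at slice 1 day with 1.27, *Slc7a2* passed *in vitro* with 2.97 and *Il4ra* passed at slice 1 day with 0.95 and *in vitro* with 0.60.

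*Chil3*, a secreted chitinase-like lectin also known as Ym1 (chromosome 3, 106147554 to 106167564, minus strand), had 0 UMIs in the adult and slice 3 weeks libraries and 1 UMI *in vitro*. It had 24 and 1781 UMIs at slice 1 day (6.55 and 187 CPM) and 761 and 0 at slice 1 week (704 and 0 CPM), so it was high in the 2 libraries with the most neutrophil markers. On the floor of 3 counts, the mean of both slice 1 day libraries was at least 618-fold higher than adult. Replicate 1 of slice 1 day alone was at least 41.9-fold higher and replicate 2 at least 1194-fold. *Chil3* passed the filter on low counts only through the groups in which it was high, so its adjusted p-values are given as a description. Without slice 1 day replicate 2 the call at slice 1 day was lost (adjusted p = 0.157, edgeR), as was the fall to slice 3 weeks (adjusted p = 0.211), and without slice 1 week replicate 1 *Chil3* was at 0 in slice 1 week. With both of these libraries left out together, *Chil3* was called at slice 1 day against adult (log2 fold change 9.57, adjusted p = 0.00634) and in the fall (adjusted p = 0.0191, edgeR), on the 24 UMIs of slice 1 day replicate 1, so the 2 settings did not give the same call. Leaving out adult replicate 1 ended the calls at slice 1 day (adjusted p = 0.0656) and 1 week (adjusted p = 0.0539), and leaving out slice 3 weeks replicate 2 ended the fall (adjusted p = 0.0987).

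The neutrophil-marker-rich cells held 87.5%, 80.0% and 91.1% of the *Chil3* UMIs in slice 1 day replicates 1 and 2 and slice 1 week replicate 1, while they made up 4.69%, 7.81% and 13.7% of all UMIs of those libraries. In the last, 18 of 24 such cells (75.0%) held a *Chil3* UMI. Other cells held *Chil3* at 0.860, 40.5 and 72.9 CPM, and the adjusted p against adult with these cells alone was 0.00725 at slice 1 day and 0.0106 at 1 week (edgeR), again as a description. For each 1000 UMIs of the neutrophil list there were 8.14 *Chil3* UMIs in the neutrophil-marker-rich cells and 9.17 in the other cells of slice 1 day replicate 2, and 18.1 and 12.9 in slice 1 week replicate 1. In slice 1 day replicate 1 it was 0.808 and 1.45, with 3 UMIs of *Chil3* in the other cells. For *Ass1* the same ratio was 0.0114 in the neutrophil-marker-rich and 5.02 in the other cells of slice 1 day replicate 2. The neutrophil list made up 23.5% of UMIs in the former and 0.442% in the latter. A gene at an equal level in both would therefore also have a lower ratio in the former. In CPM *Ass1* was at 2.68 and 22.2, with 2 UMIs in the neutrophil-marker-rich cells. No test was made of these ratios. Of the monocyte list, 9 and 10 of 10 genes were detected at slice 1 day, at 0.0216% and 0.0225% of UMIs, and 2 to 8 of 10 in the other libraries, at 0.000502% to 0.0185%, and the part of such cells was not tested.

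Other genes of arginine and polyamine metabolism moved in both directions. Of 38 listed genes, 36 were tested. *In vitro* against adult, 12 were higher (33.3%, beside 22.4% of all genes) and 11 lower (30.6%, beside 28.5%), with a median log2 fold change of 0.04 against -0.11 over all genes. At slice 1 day 12 were higher (33.3%, beside 24.9%) and 4 lower (11.1%, beside 25.3%), with medians of 0.38 and -0.06. At slice 1 week 7 were higher (19.4%, beside 15%) and 4 lower (11.1%, beside 13.6%), with medians of 0.01 and -0.09. At slice 3 weeks 10 were higher (27.8%, beside 17.9%) and 5 lower (13.9%, beside 17.5%), with medians of 0.10 and -0.03. The share lower *in vitro* and both shares at slice 1 week were near those of all genes. For this list too, the part of the neutrophil-marker-rich cells in the slice values was not tested. *Gch1*, which starts the synthesis of the nitric oxide synthase cofactor tetrahydrobiopterin, was higher than adult in all 4 groups, 3.13-fold *in vitro*, 5.06-fold at slice 1 day, 4.31-fold at 1 week and 3.67-fold at 3 weeks. *Sms*, spermine synthase, was 2.69-fold higher *in vitro*, 3.15-fold at slice 1 day, 1.87-fold at 1 week and 1.90-fold at slice 3 weeks. *Paox*, polyamine oxidase, was 3.36-fold higher *in vitro* and 1.72-fold at slice 1 week, and *Eif5a*, the protein that carries the spermidine-derived residue hypusine, was 2.05-fold higher *in vitro*, 4.11-fold at slice 1 day, 1.74-fold at 1 week and 1.78-fold at 3 weeks.

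The creatine genes *Gamt* (3.13-fold *in vitro*, 1.87-fold at slice 1 week and 1.55-fold at 3 weeks) and *Gatm* (3.40-fold at slice 1 day and 1.98-fold at 1 week) were also higher than adult. *Aldh18a1*, which makes the precursor of proline and ornithine, was 1.96-fold higher at slice 1 day and 1.79-fold at slice 3 weeks, and 0.498 times adult *in vitro*. *Slc7a7*, a transporter of basic amino acids, was lower than adult in all 4 groups, at 0.555 times *in vitro* and 0.465, 0.488 and 0.563 times at slice 1 day, 1 week and 3 weeks. *Pts*, of tetrahydrobiopterin synthesis, was 0.366 times adult at slice 1 day and 0.517 times at slice 3 weeks. From slice 1 day to slice 3 weeks 2 genes of the list rose (5.56%, beside 13.9% of all genes) and 7 fell (19.4%, beside 12.8%), with medians of -0.21 and 0.05. *In vitro* against slice 3 weeks 7 were higher (19.4%, beside 13.3%) and 8 lower (22.2%, beside 19.9%), with medians of -0.05 and -0.10.

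Of 25 listed genes of the interleukin 4 response, 18 were tested. *In vitro* against adult, 5 were higher (27.8%, beside 22.4% of all genes) and 2 lower (11.1%, beside 28.5%), with a median log2 fold change of 0.20 against -0.11 over all genes. At slice 1 day 8 were higher (44.4%, beside 24.9%) and 4 lower (22.2%, beside 25.3%), with medians of 0.86 and -0.06. At slice 1 week 5 were higher (27.8%, beside 15%) and 1 lower (5.56%, beside 13.6%), with medians of 0.10 and -0.09, and at slice 3 weeks 4 were higher (22.2%, beside 17.9%) and 5 lower (27.8%, beside 17.5%), with medians of 0.06 and -0.03. From slice 1 day to slice 3 weeks 0 rose (13.9% of all genes) and 6 fell (33.3%, beside 12.8%), with medians of -0.56 and 0.05. *In vitro* against slice 3 weeks 8 were higher (44.4%, beside 13.3%) and 4 lower (22.2%, beside 19.9%), with medians of 0.58 and -0.10. The part of the neutrophil-marker-rich cells in the slice values of this list was not tested. *Mrc1*, the mannose receptor, was 91.6-fold higher than adult *in vitro*, 5.63-fold at slice 1 day, 12.8-fold at slice 1 week and 2.95-fold at 3 weeks. It is also one of the 9 markers of border macrophages, which made up 0.492% and 0.512% of UMIs *in vitro*, 0.0139% and 0.0177% in adult and 0.0210% to 0.0672% in slices. 

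*Il2rg*, the shared gamma chain of the interleukin 4 receptor, was 5.83-fold higher than adult *in vitro*, 4.99-fold at slice 1 day and 3.93-fold at slice 3 weeks. *Il13ra1*, which pairs with *Il4ra*, was 0.218 times adult *in vitro* and 0.640 times at slice 3 weeks. *Klf4*, a transcription factor, was 5.46-fold higher at slice 1 day, 6.71-fold at 1 week and 12.5-fold at 3 weeks. *Ccl24*, an eotaxin, was 3.10-fold higher at slice 1 day and 0.177 times adult at 3 weeks. *Tgm2*, a transglutaminase, was 0.0918 times adult at slice 1 week and 0.147 times at 3 weeks.

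Of 15 listed genes of classical activation, the response to interferon and bacterial products, 13 were tested. *In vitro* against adult, 3 were higher (23.1%, beside 22.4% of all genes) and 5 lower (38.5%, beside 28.5%), with a median log2 fold change of -0.54 against -0.11 over all genes. At slice 1 day 4 were higher (30.8%, beside 24.9%) and 6 lower (46.2%, beside 25.3%), with medians of -0.53 and -0.06. At slice 1 week 2 were higher (15.4%, beside 15%) and 4 lower (30.8%, beside 13.6%), with medians of -0.62 and -0.09, and at slice 3 weeks 3 were higher (23.1%, beside 17.9%) and 3 lower (23.1%, beside 17.5%), with medians of -0.35 and -0.03. *In vitro* against slice 3 weeks 4 were higher (30.8%, beside 13.3%) and 6 lower (46.2%, beside 19.9%), with medians of -0.40 and -0.10, and from slice 1 day to slice 3 weeks 3 rose (23.1%, beside 13.9%) and 3 fell (23.1%, beside 12.8%), with medians of -0.33 and 0.05.

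The median of this list hides large differences in both directions, shown here by genes that were chosen after their values were seen. *Cybb*, the catalytic subunit of the phagocyte NADPH oxidase, was 46.6-fold higher than adult *in vitro*, 29.7-fold at slice 1 day, 27.8-fold at 1 week and 8.82-fold at 3 weeks. *Il1b*, the cytokine interleukin 1 beta, was 10.3-fold, 41.5-fold, 11.5-fold and 3.42-fold higher in the same order. *Tnf*, tumour necrosis factor, was 3.03-fold higher *in vitro*, 12.1-fold at slice 1 day and 9.70-fold at 3 weeks. *Ifngr1*, a chain of the interferon gamma receptor, was 0.204, 0.213, 0.348 and 0.358 times adult *in vitro* and at slice 1 day, 1 week and 3 weeks. *Cd86*, a costimulatory ligand, was 0.0800, 0.540, 0.350 and 0.402 times adult. The part of the neutrophil-marker-rich cells in these slice values was not tested. These lists were written by hand with results of these data known, so their counts are a description.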

How the data were processed

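Microglia from 5 groups of 2 libraries were measured. Per the labels the libraries are 10x Genomics 3′ v2, and the submitters' processing notes name Cell Ranger 1.3.0 and mm10. The authors deposited a table of UMI counts for each library, not normalized, and whether the tables precede the aggregation step of Cell Ranger is not given in the sources used here. Here 578 barcodes were left out for a mitochondrial share above 5%, fewer than 400 genes or a total above 30000 UMIs. Counts were summed per library and fitted in 1 model of 10 libraries with edgeR 4.0.16 (R 4.3.3; quasi-likelihood test, TMM factors, filterByExpr with a minimum of 10, 5 residual degrees of freedom), and the adjusted p is by Benjamini and Hochberg over 12157 genes. The series design names biological replicates, and the p-values measure the spread between these libraries. The total UMIs per library ran from 385373 to 39689540, which sets the precision of low genes. With no UMI in a group, folds of the mean of the other group, or of 1 of its libraries, are set against 3 counts over both libraries of the group without UMIs.

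Thinning drew 1800 UMIs per cell without replacement, and intervals are exact binomial (Clopper-Pearson, 95%) from scipy 1.17.1 in Python 3.11.15. The 6 genes, the gene lists and the markers were chosen with earlier results of these data known. Named list genes are, for the arginine and interleukin 4 lists and each comparison against adult, up to 4 called genes largest in log2 fold change and average log2 CPM 3 or more. Further planned items are not reported here. The threshold of 2% for neutrophil-marker-rich cells was set after the data were seen. Doublets were not called. Alternatives were another scaling, DESeq2 1.42.0, no filter, all barcodes, other terms and libraries left out.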

Additional observations from a re-analysis of the deposited data

How the results depend on the processing

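The counts of the 6 genes that passed the test moved by over 1.5 times in these cases. *In vitro* against adult went from 3 to 1 under library size alone and to 1 with the study label as a term. Slice 1 week against adult went from 2 to 1 with only the 2 groups fitted, and, as alternatives chosen after seeing the data, to 1 without neutrophil-marker-rich cells and to 0 without slice 1 day replicate 2 and slice 1 week replicate 1 together. Slice 3 weeks against adult went from 1 to 2 under DESeq2 size factors in edgeR, no filter on low counts and all barcodes, each time with *Nos2* (adjusted p from 0.0477 to 0.0491). The cause was not tested. Leaving out 1 library gave 0 to 3 *in vitro* against adult, 3 to 5 at slice 1 day, 0 to 2 at slice 1 week, 1 to 3 at slice 3 weeks, 2 to 4 *in vitro* against slice 3 weeks, and 1 to 3 from slice 1 day to slice 3 weeks. The lone library of a group is then taken to vary like the other groups. The count moved by over 1.5 times without adult replicate 1 (all 4 groups against adult), adult replicate 2 (*in vitro* and slice 1 week against adult), *in vitro* replicate 1 (*in vitro* against adult), slice 1 day replicate 2 (1 day against adult and the fall to 3 weeks), slice 1 week replicate 1 (slice 1 week), slice 3 weeks replicate 1 (slice 3 weeks against adult), and either *in vitro* library (*in vitro* against slice 3 weeks). DESeq2 alone called *Chil3* *in vitro* on 1 UMI (adjusted p = 0.00811). Library size alone moved the median of all genes from -0.11 to -0.42 *in vitro* against adult.

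The replicate numbers did not pair the libraries: correlations of the deviations of replicate 1 between groups ran from -0.11 to 0.09. With the replicate block the counts were 3, 5, 2 and 1 against adult for *in vitro*, slice 1 day, 1 week and 3 weeks, 4 *in vitro* against slice 3 weeks and 3 from slice 1 day to slice 3 weeks, and the block changed none of these counts. Leaving out all cells with 3 neutrophil or 3 monocyte markers was not run for the fits, since 7 and 0 cells would remain in 2 libraries. At slice 1 week, the 148 and 61 cells limit what can be seen.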
